A study of Mus musculus with 12 samples.

Results

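MiR-101a and miR-101b are the mouse members of the miR-101 family, and they were taken by name (mmu-miR-101a and mmu-miR-101b) as 2 of the 566 mouse miRNA probes in a table of 626 probes. The series profiled miRNAs by NanoString nCounter, a hybridization assay that counts tagged molecules without amplification, in immortalized mouse macrophages (IMM), a cell line kept in permanent culture. LPS, the lipopolysaccharide of Gram-negative bacteria, was given at 100 ng/mL, and cells were collected at 0 min (the control), 30, 60 and 120 min with 3 biological replicates at each, 12 samples in all. All groups share the line, its medium and 5 passages after thawing, and none carries a named genetic change beyond the immortalization, whose means the labels do not give. Of 7 miRNAs that mark myeloid cells, 6 were above the floor of the data in all 12 samples, among them miR-223 and miR-142-3p. The exception was miR-155, which LPS is known to induce and which stood at that floor throughout.

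A miRNA guides an Argonaute protein to messenger RNAs through its seed, bases 2 to 8 from its 5′ end. LPS acts through Toll-like receptor 4 and switches on NF-κB and the MAP kinases, and the phosphatase Dusp1 then removes phosphate from these kinases and so ends the production of inflammatory cytokines. MiR-101 is known to repress Dusp1 in macrophages treated with LPS, and it is also known to repress Ezh2, the histone methyltransferase of the Polycomb complex, and Ptgs2, the inducible cyclooxygenase. The panel counts mature miRNAs, and messenger RNAs of these targets were not analysed here. The comparison asked whether the level of either family member moved within the first 120 min of LPS.

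The mature sequences show how alike the members are, and they bear on how far their probes can be told apart. They are given 5′ to 3′ from RefSeq (GRCm38.p6), with the seed in capitals. The panel writes the names without an arm, and these older names refer to the 3p arms. Mature miR-101a-3p lies at chr4:101346957-101346977 on the minus strand, and miR-101b-3p at chr19:29135338-29135356 on the plus strand.
miR-101a-3p: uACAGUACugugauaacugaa
miR-101b-3p: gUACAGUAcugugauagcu
miR-144-3p: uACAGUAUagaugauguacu
miR-582-5p: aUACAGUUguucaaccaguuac

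As annotated, miR-101b-3p (19 bases) starts 1 base further upstream than miR-101a-3p (21 bases), so that the same 7 letters that form the miR-101a seed stand at bases 3 to 9 of miR-101b. With this shift of 1 base, 17 of 18 aligned bases are identical, and the only difference is A16G, counted from the 5′ end of miR-101a-3p with its base first. MiR-144-3p is the only other mature miRNA of the RefSeq table that shares bases 2 to 7 with miR-101a, and miR-582-5p the only other one that shares them with miR-101b. Both were on the panel. MiR-144, an erythroid miRNA, was at the floor throughout. MiR-582-5p was at the floor in 11 samples and had a signal of 34.2 in 60 min replicate 2.

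The hairpin precursors show that the shift lies in the annotated ends and not in the surrounding letters. The mature 3p arm is in capitals.
Mir101a hairpin: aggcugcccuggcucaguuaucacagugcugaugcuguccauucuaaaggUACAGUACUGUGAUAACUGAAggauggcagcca
Mir101b hairpin: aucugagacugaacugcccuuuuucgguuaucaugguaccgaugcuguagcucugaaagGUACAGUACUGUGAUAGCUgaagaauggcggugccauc
Over a window of 22 bases, from the base before miR-101a-3p to its last base, the hairpins are identical at 21 bases. The Mir101a hairpin (chr4:101346945-101347027) lies within the span of the long non-coding RNA gene E130102H24Rik, and the Mir101b hairpin (chr19:29135279-29135375) within the span of the protein-coding gene Rcl1, whose product acts in ribosomal RNA processing. With a single differing base in this window, signal of either member may include the other to an extent that was not tested, and the 2 probes are reported with this limit.

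The deposited value is a signal made of counts multiplied by 1 factor per sample, which sets the geometric mean of 4 reference mRNAs (Actb, B2m, Gapdh and Rpl19) to 9390.3 in every sample, with low entries written as 20. Dividing by the factor gave back whole counts, and these totalled 138655 to 365403 per sample. In 0 min replicate 1 the factor was 2.26 signal units per count against 0.748 to 1.31 in the other 11 samples, so a floored entry there can stand for up to 19 counts or a signal of 43.0. Tests covered the 166 mouse miRNAs whose mean signal exceeded 30.5. This limit is 2 SD above the mean negative control in counts, and it was applied to signal, which carries the factor of each sample. Both members passed this filter, with means of 36.0 and 107.8. MiR-101a did so only through its later time points, since its mean as deposited was 21.1 in resting cells. Log2 changes are given ± SE from a limma fit over all 12 samples on log2(signal + 1), which understates changes of low entries. Adjustment of p over these 166 followed Benjamini and Hochberg.

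MiR-101a had a higher mean signal at 120 min of LPS (48.8) than at 0 min (21.1) on the deposited scale. At 0 min its signal was 23.4 in replicate 2 and at the floor of 20 in replicates 1 and 3. At 30 min the 3 samples had 26.1, 27.8 and 40.4. At 60 min they had 43.9, 52.6 and 31.8, and at 120 min 53.7, 57.4 and 35.2. Every stimulated sample was above every 0 min sample as deposited, whereas the 3 stimulated time points overlapped one another. The floored 0 min replicate 1 could, however, stand for a signal up to 43.0, which is above all 30 min samples and above replicate 3 of both 60 and 120 min, so the separation holds at no time point for certain. Groups also failed to overlap in this direction for 15.7% of the 166 tested miRNAs at 30 min, 18.1% at 60 min and 34.9% at 120 min.

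The log2 change of miR-101a from 0 min was 0.53 ± 0.38 at 30 min (limma, adjusted p = 0.605), 0.96 ± 0.38 at 60 min (adjusted p = 0.0853) and 1.14 ± 0.38 at 120 min (adjusted p = 0.017). The last passed the threshold of 0.05. Of all tested miRNAs, 3.01%, 10.8% and 21.7% passed as higher at these times and none as lower. Of the 129 miRNAs above the floor in all samples, 19 passed as higher at 120 min. The joint limma F test of the miR-101a changes from 0 min did not pass (adjusted p = 0.0805). MiR-101a passed the filter only through its stimulated samples. Its tests against 0 min and its trend, on any scale, are therefore no independent support for a rise. No difference between 30, 60 and 120 min passed, the largest being 0.61 ± 0.38 from 30 to 120 min (limma, adjusted p = 0.514), where 6.63% of tested miRNAs passed. A trend over the 4 time points was tested by an exact permutation test over all 369600 assignments of the 12 samples, two-sided and run on every tested miRNA. MiR-101a rose by 0.39 log2 units per time point (exact permutation p = 0.00106, adjusted p = 0.0129), beside a median of 0.19 over the 166 and a passing rise for 21.7% of them. Neither passed with 1 common floor of 43.0 in all samples, the highest signal that a floored entry can hide. The log2 change at 120 min was then 0.24 ± 0.15 (limma, adjusted p = 0.294) and the trend 0.082 per time point (exact permutation test, adjusted p = 0.0824). This floor also raises measured values, among them all those at 30 min, so it shrinks a change by construction and cannot show what the call rests on. Without 0 min replicate 1 the change at 120 min was 1.11 (limma, adjusted p = 0.0116) and the trend 0.37 (exact permutation test, adjusted p = 0.0198). Both passed, as did 46.4% and 30.7% of tested miRNAs as higher or rising in these fits. The call at 120 min ended on leaving out replicate 3 of 0 min (1.11), or either replicate 1 (1.06) or replicate 2 (1.01) of 120 min, with limma's adjusted p between 0.0631 and 0.0846.

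**Figure D1:**
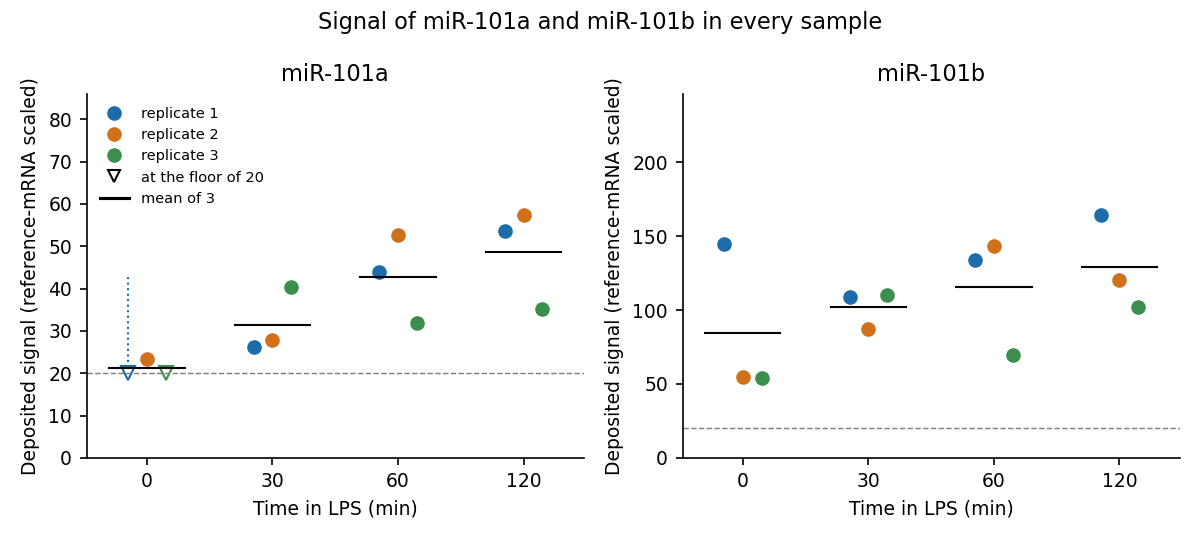
Deposited signal of miR-101a (left) and miR-101b (right) against time in LPS; each point is 1 sample, colours mark the replicate number, black bars are means of 3 samples, and the dashed line is the floor of 20. Open triangles are floored entries, and the dotted line runs up to the 43.0 that the floored entry of 0 min replicate 1 can stand for. All stimulated miR-101a samples lie above the 0 min samples as deposited, and for miR-101b 0 min replicate 1 lies among the stimulated samples.

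MiR-101b was above the floor in every sample, and no change of it from 0 min passed on the deposited scale. At 0 min it had 144.9, 54.5 and 54.3 in replicates 1, 2 and 3. At 30 min the signal was 109.2, 87.5 and 110.4, at 60 min 133.7, 143.3 and 69.8, and at 120 min 164.3, 120.4 and 101.8. Replicates 2 and 3 at 0 min were the lowest of all 12 samples, and 0 min replicate 1 was exceeded by 1 stimulated sample alone, so that the groups overlapped at every time point. Mean signal of the resting cells was 84.6 ± 52.2 (SD, n = 3), and the stimulated groups had 102.4 ± 12.9 (30 min), 115.6 ± 39.9 (60 min) and 128.8 ± 32.1 (120 min).

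Log2 changes of miR-101b of 0.43 ± 0.38 (30 min), 0.54 ± 0.38 (60 min) and 0.73 ± 0.38 (120 min) did not pass in limma (adjusted p = 0.704, 0.393 and 0.134). At 120 min the 95% interval of the change ran from -0.0074 to 1.48, so a rise of that size is not shown to be absent. The exact trend test gave 0.23 log2 units per time point (p = 0.0936, adjusted p = 0.195). These calls turned on 0 min replicate 1: without it the log2 changes were 1.00 at 60 min and 1.20 at 120 min (limma, adjusted p = 0.0351 and 0.00662), and the trend was 0.34 per time point (exact permutation test, adjusted p = 0.0449). Leaving that sample out also raised the share of all tested miRNAs that passed as higher, to 22.3% at 60 min, 46.4% at 120 min and 30.7% for the trend.

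Read as counts, with the factor of each sample taken out, miR-101b was lowest at 0 min and highest at 120 min. The 0 min samples held 64, 63 and 64 counts of miR-101b, the 30 min samples 92, 88 and 93, the 60 min samples 128, 109 and 79, and the 120 min samples 150, 151 and 136. All 120 min samples were above all others, all 0 min samples below all others, and the 30 and 60 min samples overlapped. Such separation was common over the panel when samples were scaled to the hybridization positive controls. This scaling lifts the 120 min samples somewhat above the counts as read. Mean miR-101b was 64.0 at 0 min and 166.5 at 120 min on it, against 63.7 and 145.7 counts. On that scale all 120 min samples lay above all 0, 30 and 60 min samples for 88.6%, 75.3% and 69.9% of tested miRNAs. All 30 and all 60 min samples lay above all 0 min samples for 37.3% and 48.2%. A count of 64 has an exact Poisson interval of 49.3 to 81.7 at 95%, so the 0 min samples differed by less than counting error. In every sample miR-101b exceeded the highest negative control, and it was 4.83 to 14.0 times the mean of the negative controls.

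MiR-101a gave fewer counts, close to background early in the time course. At 0 min it had 27 counts in replicate 2 and at most 19 and 23 in the floored replicates 1 and 3. It had 22, 28 and 34 counts at 30 min, 42, 40 and 36 at 60 min, and 49, 72 and 47 at 120 min. The highest negative control of a sample held 24 to 36 counts, and miR-101a exceeded it in 1 of 3 samples at 0 min, 2 of 3 at 30 min and all 6 at 60 and 120 min. In 0 min replicate 2 the margin was 27 counts against 26, within the exact Poisson interval of 17.8 to 39.3. The intervals at 30 min also included the highest negative control. At 60 min they were 30.3 to 56.8, 28.6 to 54.5 and 25.2 to 49.8, and included its 36, 30 and 33 counts. At 120 min their lower ends (36.3, 56.3 and 34.5) exceeded it (33, 24 and 28 counts). By these intervals, miR-101a was above the highest negative control at 120 min only. Intervals cover counting error only.

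**Figure D2:**
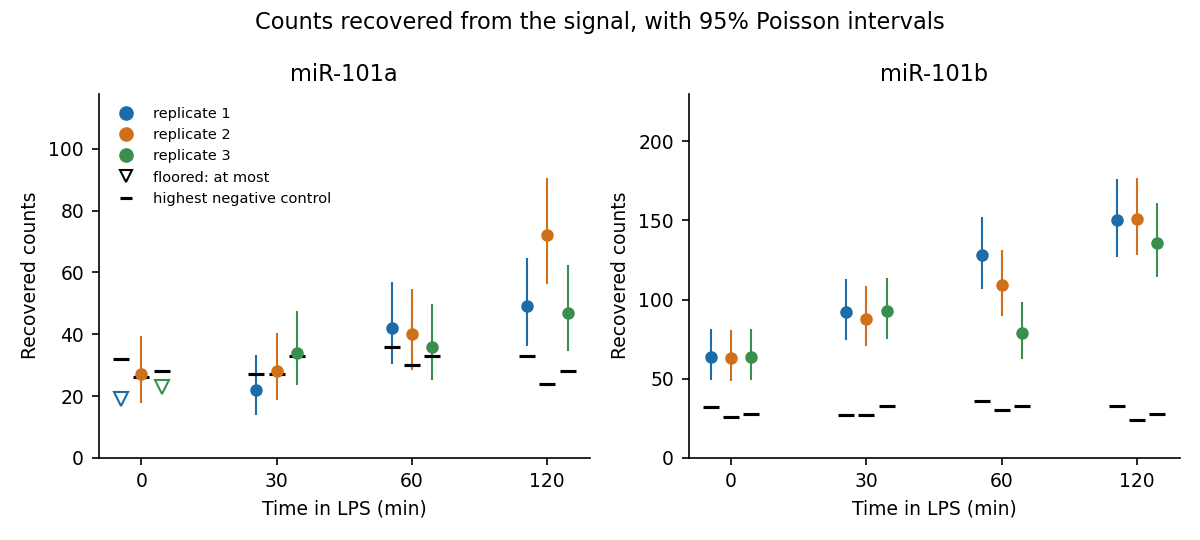
Counts of miR-101a (left) and miR-101b (right) recovered from the deposited signal, against time in LPS; points are samples with exact 95% Poisson intervals, open triangles are upper limits of floored entries, and black dashes are the highest negative control of the same sample. MiR-101b lies between 63 and 64 counts at 0 min and between 136 and 151 at 120 min. The miR-101a points lie above the highest negative control from 60 min on, but their intervals at 60 min include it.

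These counts can be compared between samples only through a reference, and the references themselves differed between the groups. The 4 reference mRNAs gave 881.6 counts per 1000 counts of the hybridization positive controls in 0 min replicate 1, against 1585 to 3156 in the other 11 samples. The ligation positive controls, RNAs added before the step that joins a tag to each miRNA, gave 141.8, 278.4 and 293.1 per 1000 in the 0 min samples. All 9 stimulated samples were higher, between 384.1 and 528.8. For 0 min against later times, a rise in miRNA and a higher yield of the ligation step cannot be told apart. Among the stimulated groups the controls gave 409.7 to 508.0 at 30 min, 384.1 to 486.8 at 60 min and 498.3 to 528.8 at 120 min. All 120 min samples thus lay above all 60 min samples in this control too, while the 30 min range overlapped both.

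**Figure D3:**
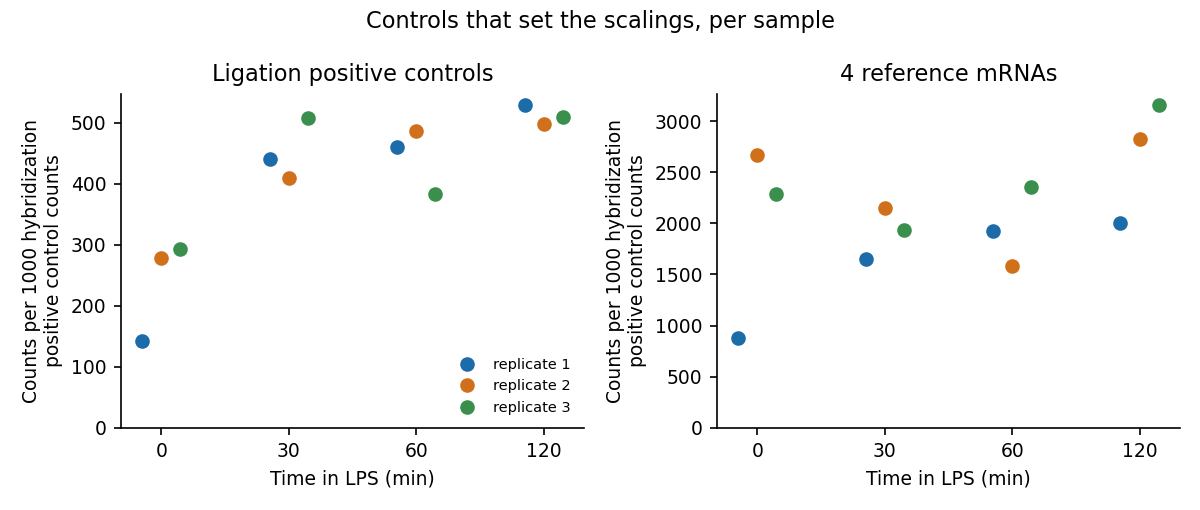
Counts per 1000 hybridization positive control counts in each of the 12 samples, for the 3 ligation positive controls (left) and the 4 reference mRNAs (right), against time in LPS; colours mark the replicate number. The ligation controls of the 0 min samples (141.8 to 293.1) lie below those of all stimulated samples, and 0 min replicate 1 has the fewest reference mRNA counts.

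Scaled to the hybridization positive controls, which lifts the 120 min samples somewhat above the counts as read, both members rose. MiR-101a had log2 changes of 0.34 ± 0.25 at 30 min, 0.76 ± 0.25 at 60 min and 1.42 ± 0.25 at 120 min, of which those at 60 and 120 min passed (limma, adjusted p = 0.0169 and 4.59e-06). MiR-101b had 0.59 ± 0.23, 0.69 ± 0.23 and 1.37 ± 0.23, and again the last 2 passed (adjusted p = 0.0184 and 2.40e-06). With 0 min replicate 1 left out, which was chosen after seeing the data, the changes at 120 min were 1.26 and 1.33 and still passed, and miR-101b passed at 60 min (0.66), but miR-101a did not (0.60, limma, adjusted p = 0.0994). Of the 166 tested miRNAs 36 and 137 then passed as higher at 60 and 120 min. A rise was the rule on this scale: 24.1%, 46.4% and 88.0% of the 166 tested miRNAs passed as higher at 30, 60 and 120 min, and the median log2 change at 120 min was 1.18. All 120 min samples lay above all 0 min samples for both members and for 88.6% of tested miRNAs.

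Set against other miRNAs of the same sample, neither member moved by an amount that passed. Scaled to the 100 most abundant mouse miRNAs other than the members, mean miR-101b was 99.5 ± 25.8 (SD, n = 3) at 0 min, 103.0 ± 4.35 at 30 min, 102.1 ± 13.0 at 60 min and 105.2 ± 9.49 at 120 min. Its log2 change at 120 min was 0.10 (95% interval -0.26 to 0.47; limma, adjusted p = 0.687). MiR-101a, with its floored entries set to the highest value they can stand for, had a change of 0.18 (-0.26 to 0.62; adjusted p = 0.54). Under this scaling 20 of the 166 were higher and 45 (27.1%) lower at 120 min. Entries near the floor can fall here by construction, since a floored entry is divided by the factor of its sample. With a common floor added, 20 were higher and 31 lower, so changes of other miRNAs were still called at this sample size. Without that common floor, the members had 0.14 (miR-101a) and 0.058 (miR-101b) at 60 min, where 9.64% were higher and 21.1% lower. For miR-101b the value rested in part on 0 min replicate 1, without which the change at 120 min was 0.30 (95% interval -0.014 to 0.62, limma, adjusted p = 0.135). For miR-101a the interval is no upper limit of a rise, since 2 of its 3 values at 0 min are upper limits themselves.

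Scaled to the ligation positive controls, the changes at 120 min were 0.060 for miR-101a and -0.017 for miR-101b. At that time 7.23% of tested miRNAs passed as higher and 29.5% as lower. At 60 min they were -0.19 and -0.28, with 3.61% higher and 40.4% lower, and at 30 min -0.61 and -0.38. The 30 min value for miR-101a passed as lower (limma, adjusted p = 0.0253), as did 94 of the 166 tested miRNAs (56.6%), but it compares with 0 min entries of which 2 of 3 are upper limits. The direction of both members against 0 min thus depended on the reference.

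Relative to the median of the 166 tested miRNAs, the choice of reference largely cancels by construction, since each scaling divides a whole sample by 1 factor. For miR-101b at 120 min this difference was 0.16 on the deposited scale and 0.18 on each of the other 3 scales, and leaving out 0 min replicate 1 raised it to 0.39 on the deposited scale. For miR-101a it was 0.57 on the deposited scale, where floored entries count as 20, and 0.24 to 0.26 where they stand at their upper limits. Without 0 min replicate 1 it was 0.29 on the deposited scale. With 1 common floor miR-101a was below the median (-0.14) and miR-101b above it (0.35).

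In rank, the deposited change of miR-101a at 120 min exceeded that of 84.9% of tested miRNAs, against 69.9% to 71.7% on the other 3 scales and 39.2% with a common floor. The change of miR-101b exceeded that of 60.8%, against 65.1% on the other 3 scales and 80.7% on the deposited scale without 0 min replicate 1. The place of either member among the tested miRNAs was thus not settled by these 12 samples.

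**Figure D4:**
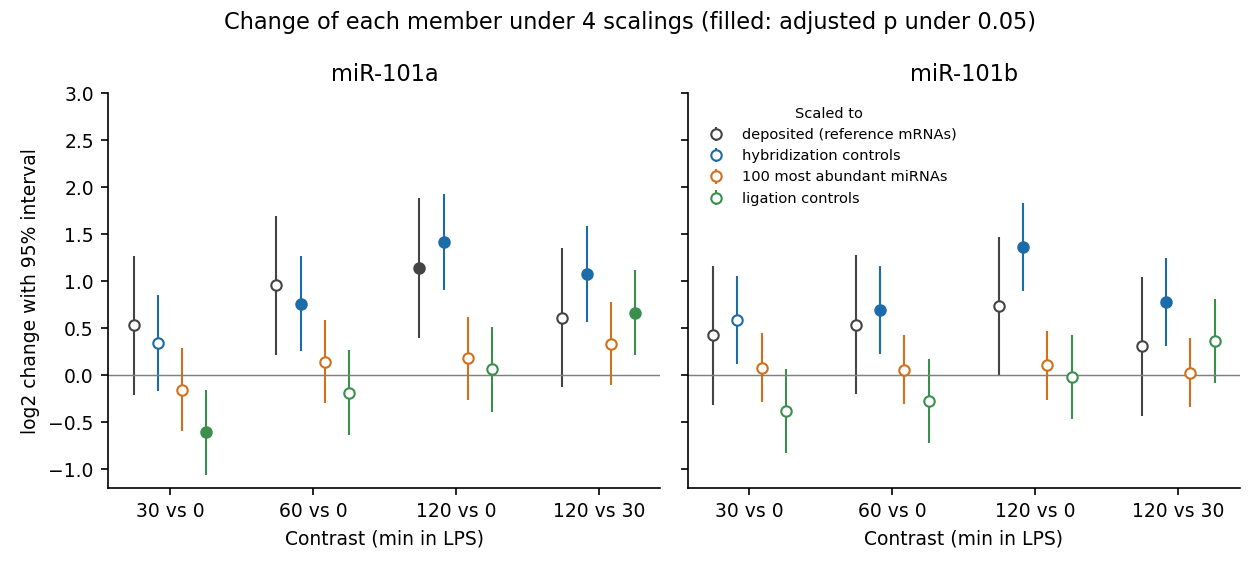
Log2 change of miR-101a (left) and miR-101b (right) for 4 contrasts, each under 4 scalings, with 95% intervals from limma; filled points have an adjusted p under 0.05. The changes against 0 min run from 1.42 and 1.37 at 120 min against the hybridization controls to -0.61 and -0.38 at 30 min against the ligation controls.

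The comparison of 120 with 30 min leaves out the 0 min samples and their low ligation controls. MiR-101b changed by 0.31 log2 units on the deposited scale, 0.78 against the hybridization controls, 0.027 against the abundant miRNAs and 0.37 against the ligation controls. The change against the hybridization controls passed (limma, adjusted p = 0.00516), as did 68.7% of tested miRNAs as higher. MiR-101a changed by 0.61, 1.08, 0.34 and 0.67 in the same order, and passed against the hybridization and the ligation controls (adjusted p = 0.0006 and 0.0288). At this contrast 24.1% of tested miRNAs were higher against the ligation controls, and 10.2% were higher and 9.64% lower against the abundant miRNAs. No miR-101a entry was floored at either time. From 30 to 60 min neither member passed under any of these scalings, and from 60 to 120 min both passed against the hybridization controls alone (0.66 for miR-101a and 0.67 for miR-101b, adjusted p = 0.0277 and 0.0184), where 58.4% of tested miRNAs were higher, against 5.42% with the ligation controls and 3.61% with the abundant miRNAs.

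**Figure D5:**
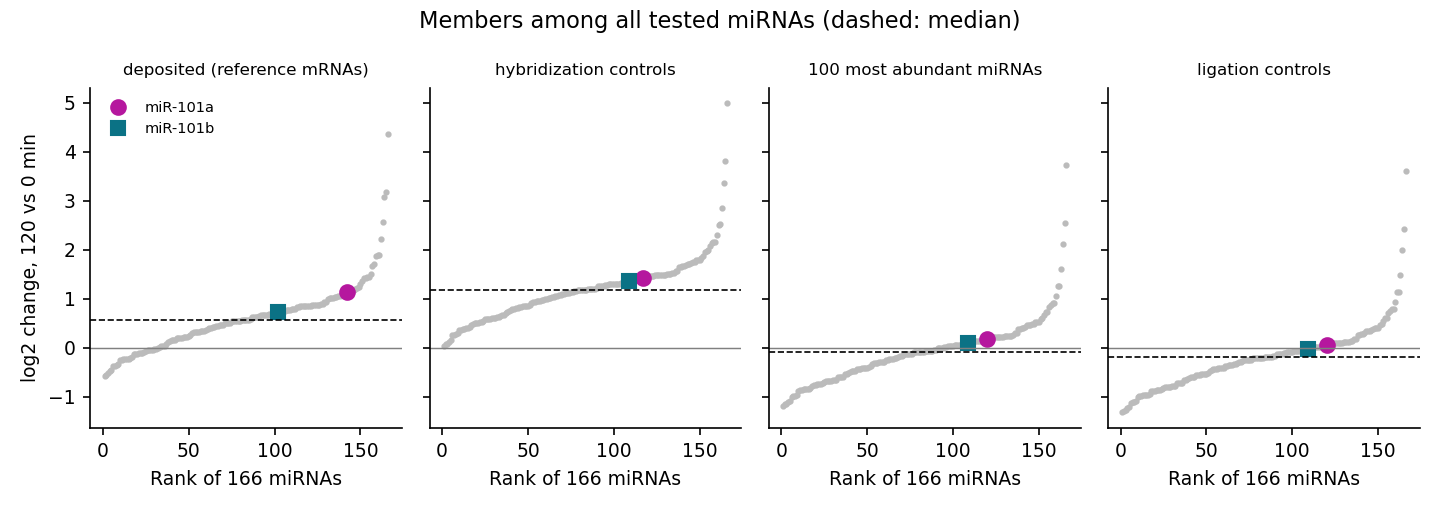
Log2 change at 120 against 0 min of the 166 tested miRNAs in rank order (grey points), in 1 panel for each scaling, with miR-101a (circle), miR-101b (square) and the median (dashed line). MiR-101b lies 0.16 to 0.18 above the median in each panel and miR-101a 0.24 to 0.57, with all 12 samples in, and the whole curve shifts from a median of 1.18 to -0.20.

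The counts of the members relative to each other overlapped between the time points. In 0 min replicate 2, counts of miR-101a were 42.9% of those of miR-101b, and in replicates 1 and 3 at most 29.7% and 35.9%. The share was 23.9% to 36.6% at 30 min, 32.8% to 45.6% at 60 min and 32.7% to 47.7% at 120 min, and these ranges overlap. The share does not depend on the factor of a sample. Its level is not a ratio of molecules, since the probes may differ in yield, and it was not tested because of the floored entries.

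The miRNAs whose pattern over the 12 samples was most like that of the members were picked by Pearson's correlation of log2 values scaled to the 100 most abundant miRNAs. For miR-101a these were miR-539 (r = 0.77), miR-7a (0.62), miR-301b (0.59), miR-362-5p (0.56) and miR-2183 (0.53). For miR-101b they were miR-301b (0.60), miR-675-5p (0.59), miR-466k (0.54), miR-222 (0.50) and miR-365 (0.46). The members correlated with each other at r = 0.37, which placed miR-101b at rank 20 on the list of miR-101a. The samples share their factors and floors, and miR-539, miR-301b, miR-2183, miR-675-5p and miR-222 had floored entries in 2 to 4 samples, so these values describe the 12 samples alone.

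Other miRNAs known to act on the same pathway or targets were read from chosen lists. Of 18 miRNAs that repress parts of Toll-like receptor signalling, 13 were tested, and 0, 1 and 3 passed as higher at 30, 60 and 120 min on the deposited scale, with none lower. Over all tested miRNAs 3.01%, 10.8% and 21.7% passed at these times, so the share of the list is near that of the panel at 120 min. The 3 were miR-146a, which targets the adaptors Irak1 and Traf6 (log2 change 1.24 ± 0.38), miR-21, which targets Pdcd4 (1.16 ± 0.38), and miR-92a, which was at the floor in all 0 min samples. The median change of the 13 at 120 min was 0.67, beside 0.57 for all 166. Against the abundant miRNAs 2 of the 13 were higher at 120 min, miR-146a and miR-21 (0.60 and 0.52), and miR-98, of the let-7 family, was lower (-0.53), beside 20 higher and 45 lower (27.1%) of all 166. At 60 min miR-21 was higher and let-7i, miR-132 and miR-98 were lower on this scale, beside 9.64% higher and 21.1% lower of all 166. The share of the list is near that of the panel there too.

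Of 9 other miRNAs known to repress Ezh2, 4 were tested, with 0 passing on the deposited scale and a median of 0.57 at 120 min. Of 8 others known to repress Ptgs2 or Dusp1, 4 were tested, and miR-16, with 1.16 ± 0.38, passed at 120 min. With 21.7% of all tested miRNAs passing, lists of 4 with 0 and 1 passing are near the panel. The median of the second list was 0.21. Against the abundant miRNAs let-7b of the first list was lower at 120 min. Of the second list, miR-16 was higher and miR-199a-3p and miR-200c were lower at that time. Beside these, 20 of all 166 were higher and 45 (27.1%) lower on this scale at 120 min (31 lower with a common floor added). The deposited signal of miR-200c lay near the floor, with means of 36.6 at 0 min and 26.1 at 120 min. Of 26 markers of other lineages, 12 were at the floor in every sample and 5 were tested (miR-181a, miR-199a-5p, miR-128, miR-200b and miR-200c). Mean signal of miR-181a was 345.5 at 0 min and 397.7 at 120 min, and that of miR-199a-5p was 88.6 and 140.3. Summed signal of the 26, with floored entries counted as 20, ran from 829.1 to 1158 at 0 min and from 939.8 to 1345 at 120 min. The part of other lineages in the values above was not tested.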

How the data were processed

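The deposited table holds a signal per probe and sample, and what the authors did was not given in the sources used here. Its form as deposited signal (counts times 1 factor, low entries at 20) was read from the values: dividing entries between 20 and 2000 by the step of their sample gave whole numbers within 0.1 for 100% of them. The controls were deposited as whole counts with no factor. The members and lists were chosen with earlier results of these data known. With 1 mean per time point, limma 3.58.1 under R 4.3.3 was fitted (two-sided, 8 residual degrees of freedom) on log2(signal + 1), after the filter at 30.5. Its prior gave every miRNA the same variance, so its p values lean on pooled residuals that share sample-wide factors. On the deposited scale the p values of limma thus measure the spread between replicates pooled over all tested miRNAs, not that of 1 member. The SE of a change was 0.38 for both members there, against 0.25 for miR-101a and 0.43 for miR-101b with no filter. The permutation test instead compares assignments of the samples to time points. Other scalings divided each sample by the geometric mean of its reference and set floored entries to their highest possible value. Named miRNAs are the members, probes sharing bases 2 to 7 with them, the 5 best correlated with each, and passing members of 3 chosen lists, at most 4 each. Fits and trend tests were tested on simulated data.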

Additional observations from a re-analysis of the deposited data

How the results depend on the processing

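Log2 changes at 30, 60 and 120 min against 0 min follow in this order. For miR-101a, scaling to the abundant miRNAs gave -0.16, 0.14 and 0.18 (the same with the replicate block added; -0.089, 0.21 and 0.25 with 0 min sample 1 left out; 0.17 at 120 min with a common floor added, chosen after seeing the data), and scaling to the ligation controls -0.61, -0.19 and 0.060. A common floor gave 0.24 and a pseudocount of 20 gave 0.73 at 120 min, and neither passed. The hybridization controls gave 0.76 at 60 min (0.60, not passing, with 0 min sample 1 left out) and the replicate block left the change there at 0.96, and both passed. The main fit has no block because the labels do not say that a replicate number marks a shared batch. Deviations of same-numbered samples correlated above 0.1 in 5 of 18 comparisons (-0.38 to 0.35), which does not settle whether the numbers pair samples. The block changed no other call of the members on the deposited scale and moved the tested miRNAs that passed from 18 to 39 at 60 min and from 36 to 61 at 120 min. Leaving out 1 sample at a time gave 1.01 to 1.36 at 120 min and 0.80 to 1.15 at 60 min, with a call at 60 min without 60 min replicate 3.

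For miR-101b, the ligation controls gave -0.38, -0.28 and -0.017, and the hybridization controls 0.69 and 1.37 at 60 and 120 min (0.66 and 1.33 with 0 min sample 1 left out, chosen after seeing the data). Leaving out 1 sample gave 0.50 to 1.20 at 120 min and 0.31 to 1.00 at 60 min. From 30 to 60 min miR-101b changed by -0.019 against the abundant miRNAs and by -0.074 to 0.44 without 1 sample. From 60 to 120 min leaving out 1 sample gave -0.13 to 0.38 for miR-101b and -0.0095 to 0.40 for miR-101a.

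The trend of miR-101a per time point was 0.084, 0.060 and 0.082 against the abundant miRNAs, the ligation controls and with a common floor (0.11 for the abundant miRNAs with 0 min sample 1 left out), none passing, and 0.36 to 0.45 without 1 sample, all passing. That of miR-101b passed against the hybridization controls (0.42; 0.41 with 0 min sample 1 left out) and ran from 0.16 to 0.34 without 1 sample. The tested miRNAs that passed at 30, 60 and 120 min numbered 5, 18 and 36 on the deposited scale, all higher. They numbered 40, 77 and 146 against the hybridization controls (1, 36 and 137 with 0 min sample 1 left out), and 0, 3 and 21 with a common floor, again all higher. Against the abundant miRNAs they numbered 1, 51 and 65, of which 1, 35 and 45 were lower. Against the ligation controls they numbered 96, 73 and 61, of which 94, 67 and 49 were lower. Without a filter they numbered 0, 0 and 24 of 566, with only miRNAs above the floor in all samples 3, 10 and 19 of 129, and without 1 sample 0 to 6, 7 to 41 and 16 to 77. The cause of these differences was not tested, other than the floor and scale by construction. The alternatives of the ratio between the members were not run, since floored entries left it without a test, and miR-101a has no value where all samples must be above the floor. Depth limits miR-101a, whose counts at 0 and 30 min lie near the negative controls.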
